A study of Vitis vinifera with 36 samples.

Results

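Winter-crop berries of the grape cultivar Muscat Superior were compared with summer-crop berries of the same cultivar at E-L 35, the onset of veraison on the modified Eichhorn-Lorenz scale. The libraries were chosen by the labels for cultivar, crop and stage, which gave 6 of the 36 libraries of the series, 3 winter and 3 summer. The series crossed 2 cultivars (Victoria and Muscat Superior), the summer and winter crops and 3 stages (E-L 35, 36 and 38), and was made to compare the crops. All vines were Vitis vinifera, 7 years old, on a rootstock of unknown kind, and grew in southern China in 2014 with a cover against rain. They bore both crops within a year. For the summer crop the pruned vines were forced with hydrogen cyanamide in February, with the terminal bud left unsprayed, and reached veraison in June. For the winter crop the vines were pruned again in August, stripped of leaves by hand, and given hydrogen cyanamide at the terminal bud and the pruning wound. Hydrogen cyanamide breaks bud dormancy, and both crops received it, so there was no unforced control. Crop, season, calendar date, defoliation, site of application and any processing batch cannot be told apart in this design.

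RNA came from frozen berries with the seeds removed, so skin and flesh were pooled, and each library stood for 50 berries of a biological replicate, per the labels. Markers of seed, xylem and epidermis were not analysed here, and the tissue label was not checked against them. In such pooled tissue, fewer cells of a type and less RNA per cell cannot be told apart. The files give gene identifiers without names. Loci are therefore grouped into lists recalled from published grape gene families. A role given below is that of the family a locus was listed under, and it was not checked against an annotation.

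Veraison is the switch at which grape berries soften, take up sugar and, in coloured cultivars, lay down anthocyanin pigments in the skin. The pigments are flavonoids: phenylalanine enters the phenylpropanoid route, chalcone synthase builds the chalcone skeleton of flavonoids, and hydroxylases set their colour class. Late enzymes, glutathione S-transferases and vacuolar transporters finish and store the pigment under MYBA transcription factors. Light and temperature are known to affect this route in grape skin, while abscisic acid and sugars are tied to its onset.

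The winter libraries held 10.1 ± 1.22 mega-counts (SD, n = 3) and the summer libraries 13.8 ± 0.252 mega-counts, and 22069 to 22662 genes had reads in a library. Levels are given in CPM, counts relative to library size after TMM scaling, and 0.219 to 0.340 CPM correspond to 3 counts. The winter libraries differed from each other by little more than counting noise, with a chi-square per degree of freedom of 1.48 to 1.89, against 2.42 to 6.58 among the summer libraries. The spread within the winter group may thus be technical, and p-values measure no more than the spread between libraries. The spread of each gene was therefore estimated over all 36 libraries, and calls are also given with the 3 winter libraries summed into 1 sample. This is no full remedy, because other winter groups also held near-identical libraries (a value below 2). In winter Victoria no pair at E-L 36 exceeded 1.77, and replicates 2 and 3 at E-L 38 were at 1.45. In winter Muscat Superior at E-L 36, a group used below, replicates 1 and 2 were at 1.48. The spread over all libraries may thus be too small as well. A fit with near-identical libraries summed in every group is therefore also given.

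Of 19736 tested genes, 3470 (17.6%) were called at an adjusted p below 0.05 (edgeR quasi-likelihood test, Benjamini-Hochberg). Of these, 1842 (9.33% of the tested genes) were higher in winter and 1628 (8.25%) lower. Large changes were more often increases: 811 of the called genes were at least 2-fold higher and 356 at least 2-fold lower, and at 8-fold or more the counts were 124 and 30. With the winter libraries summed, 789 genes were called, 516 higher and 273 lower, and 787 of them were among the 3470. Leaving out any 1 library gave 2313 to 2378 calls. In 50.7% of the tested genes the winter and summer libraries did not overlap, so a lack of overlap alone set no gene apart. Of the 228 tested loci of the lists, 70 (30.7%) were called, 52 higher and 18 lower. Lists and members were chosen with earlier results of these data known. Their share of calls is thus no independent evidence about the families.

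**Figure D1:**
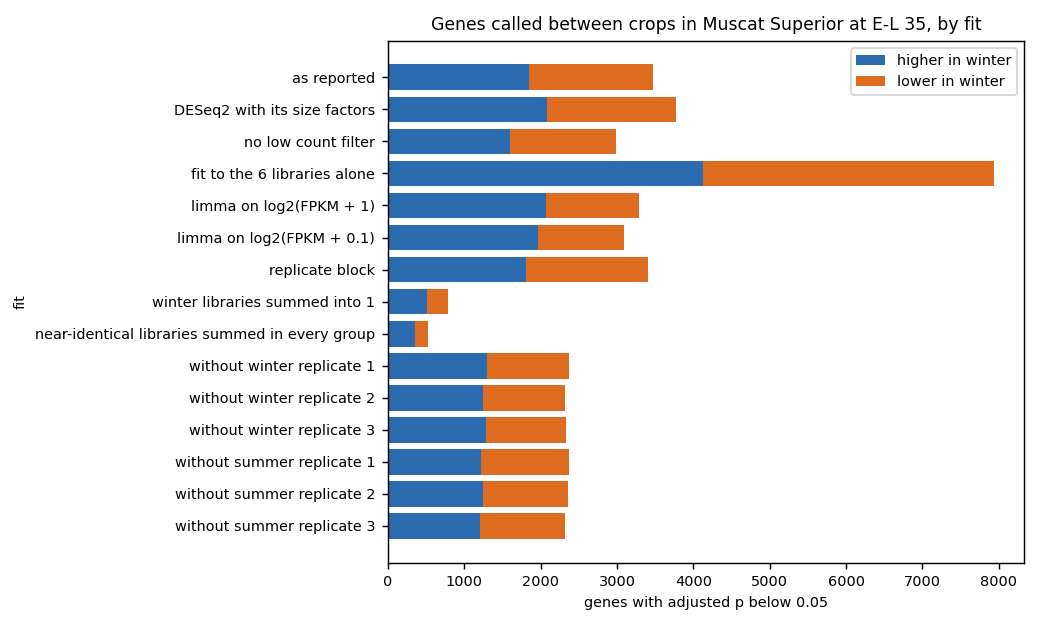
Number of genes called between the crops (x axis) in each fit (y axis), split into genes higher (blue) and lower (orange) in winter. The 6 libraries fitted alone called 7939 genes, and the fits with near-identical libraries summed called 789 and 527, against 3470 as reported.

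The phenylpropanoid entry list, which turns phenylalanine into the shared precursor of flavonoids, stilbenes and lignin, was higher in winter. Of its 20 tested loci 8 rose and 0 fell, against 9.33% and 8.25% of all tested genes, with a median log2 fold change of 1.92 (0.00 over all tested genes). Their summed level was 876, 903 and 875 CPM in the winter libraries and 280, 291 and 271 CPM in summer, or 885 ± 16.2 against 281 ± 10.0 (SD, n = 3). All 3 winter sums lay above all 3 summer sums. With the winter libraries summed 3 of the 8 stayed called, and leaving out 1 library left 5 (without summer replicate 3) to 7.

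Phenylalanine ammonia-lyase takes the first step, the removal of ammonia from phenylalanine. The locus listed under it with the largest change among the named ones, VIT_206s0004g02620, was at 195, 212 and 198 CPM in winter and at 20.2, 26.1 and 28.7 CPM in summer. The crops were far apart, by 8.07-fold (log2 fold change 3.01, SE 0.46, adjusted p = 4.17e-05). VIT_213s0019g04460 of the same family was at 164, 160 and 165 CPM in winter and at 39.6, 38.8 and 34.1 CPM in summer. It rose 4.34-fold (SE 0.27 on the log2 scale, adjusted p = 3.52e-06). A further 2 named loci of the family rose from lower levels, VIT_208s0040g01710 from 5.84 ± 0.749 to 28.4 ± 0.789 CPM and VIT_216s0039g01100 from 2.31 ± 1.28 to 13.3 ± 0.771 CPM. The latter was at 3.07, 3.03 and 0.826 CPM in summer, and without summer replicate 3, the low library, its adjusted p was 0.0544. Reads are shared within this family: counts were whole in at least 80% of libraries for 2 of the 15 tested loci of the family, against 73.4% of all tested genes, so how reads divide among its members is uncertain. The sum over the 15 tested loci was 435 ± 7.06 CPM in winter and 82.0 ± 3.31 CPM in summer. It does not depend on the division among these loci, but may depend on reads shared with loci outside the sum.

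Cinnamate 4-hydroxylase adds the hydroxyl group that the pathway needs next. VIT_206s0004g08150, listed under it, was at 219, 223 and 204 CPM in winter and 39.3, 40.3 and 35.6 CPM in summer. This locus had the lowest p of the list, with a log2 fold change of 2.49 (SE 0.26, adjusted p = 2.55e-07, and 6.48e-05 with the winter libraries summed). 4-Coumarate CoA ligase activates the product for the branches that follow. Of its 2 listed loci VIT_211s0052g01090 rose from 9.04 ± 1.53 to 29.5 ± 1.99 CPM (adjusted p = 0.00702, and 0.0892 with the winter libraries summed).

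The early flavonoid list covers chalcone synthase, chalcone isomerase and flavanone 3-hydroxylase, the steps from the phenylpropanoid precursor to dihydroflavonols. All 6 of its tested loci rose, with log2 fold changes of 1.13 to 2.57 and no overlap between crops, and 5 stayed called with the winter libraries summed. Leaving out any 1 library kept all 6 called. Over all tested genes 9.33% were called higher, and 26.2% were higher in winter without overlap. The summed level was 1770, 1760 and 1670 CPM in winter and 520, 581 and 530 CPM in summer, or 1730 ± 60.0 against 544 ± 33.0 (SD, n = 3).

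VIT_204s0023g03370, listed as a flavanone 3-hydroxylase, was at 209, 212 and 201 CPM in winter and 34.8, 36.2 and 33.6 CPM in summer. That was the largest change of the list, a log2 fold change of 2.57 (SE 0.43, adjusted p = 0.000131). The second locus of the family, VIT_218s0001g14310, rose less, from 75.6 ± 5.40 to 172 ± 9.17 CPM (log2 1.18, SE 0.18, adjusted p = 4.61e-05). Of the 2 chalcone synthase loci, VIT_214s0068g00920 was at 255, 244 and 223 CPM in winter and 46, 53.6 and 52.9 CPM in summer (log2 2.24, SE 0.34, adjusted p = 3.33e-05). The other, VIT_205s0136g00260, was the more abundant per length, at 506 ± 17.4 FPKM in winter and 159 ± 11.5 FPKM in summer (fragments per kilobase of transcript, scaled to library size), where VIT_214s0068g00920 had 134 ± 8.46 and 27.3 ± 2.02 FPKM. Its CPM values were 901, 896 and 837 in winter and 266, 313 and 278 in summer. The crops did not overlap, but its adjusted p of 0.00992 became 0.122 with the winter libraries summed, the only locus of the list to lose its call that way. The 2 chalcone isomerase loci rose 2.86-fold (VIT_213s0067g03820) and 2.19-fold (VIT_213s0067g02870), to 106 ± 3.90 and 131 ± 5.35 CPM.

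**Figure D2:**
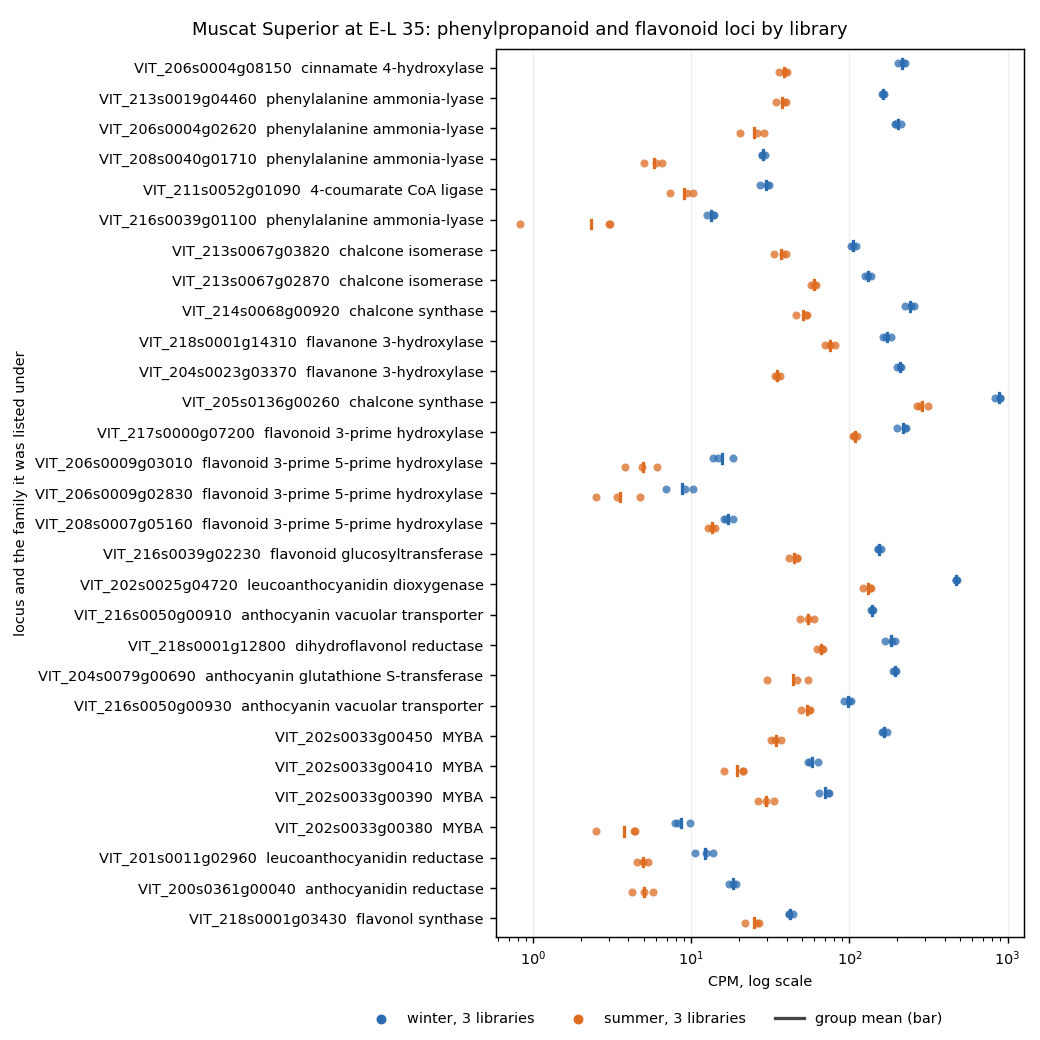
CPM on a log axis (x) of the named phenylpropanoid and flavonoid loci (y, with the family each was listed under) in the 3 winter (blue) and 3 summer (orange) libraries, with vertical bars at group means. In each of these loci all winter libraries lie above all summer libraries, from VIT_208s0007g05160 (1.26-fold) to VIT_206s0004g02620 (8.07-fold).

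The B-ring hydroxylases set the colour class: the 3-prime type leads to cyanidin (red) pigments and the 3-prime 5-prime type to delphinidin (blue) pigments. Of 12 tested loci 4 rose (9.33% of all tested genes did) and 0 fell, and 8 were higher in every winter library than in every summer library (26.2% of all tested genes). Of the 4, 2 stayed called with the winter libraries summed. Whole counts in at least 80% of libraries were found in 0 of the 2 tested 3-prime loci and 1 of the 10 tested 3-prime 5-prime loci. How reads divide among them is thus uncertain. The 3-prime hydroxylase locus VIT_217s0000g07200 was at 224, 228 and 200 CPM in winter and 107, 111 and 106 CPM in summer, a 2.01-fold rise (log2 SE 0.19, adjusted p = 0.00044). The 10 tested 3-prime 5-prime loci summed to 52.4 ± 3.61 CPM in winter and 25.3 ± 2.15 CPM in summer. Among them VIT_206s0009g03010 was at 13.7, 14.7 and 18.4 CPM in winter and 3.80, 4.87 and 6.08 CPM in summer (log2 1.67, SE 0.34, adjusted p = 0.00112). VIT_206s0009g02830 rose from 3.53 ± 1.13 to 8.75 ± 1.67 CPM, with an adjusted p of 0.0117 that became 0.0607 without winter replicate 2 and 0.0796 without summer replicate 1, and 0.123 with the winter libraries summed. VIT_208s0007g05160 moved least, 1.26-fold (adjusted p = 0.0251), and lost its call without winter replicate 2 or 3 or summer replicate 1 or 2 (adjusted p 0.0525 to 0.136) and with the winter libraries summed (0.186).

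The balance between both hydroxylase types was measured per length. The 3-prime 5-prime type held 26.7, 29.6 and 31.0% of the summed FPKM of both types in winter and 22.2, 28.5 and 27.7% in summer. The libraries overlapped. The difference of 2.97 percentage points had p = 0.3 in a two-sided exact permutation test, where 3 libraries against 3 cannot go below 0.1.

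Late steps make, decorate and store anthocyanins. Of 10 tested loci on that list 8 rose and 0 fell, against 9.33% and 8.25% of all tested genes. The list summed to 1360, 1360 and 1320 CPM in winter and 485, 523 and 508 CPM in summer, or 1350 ± 23.8 against 506 ± 19.2 (SD, n = 3). Every winter sum was above every summer sum, 6 of the 8 stayed called with the winter libraries summed, and all 8 did without any 1 library.

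The dihydroflavonol reductase locus VIT_218s0001g12800 and the leucoanthocyanidin dioxygenase locus VIT_202s0025g04720 stand for the successive steps to coloured anthocyanidins. The former was at 194, 187 and 167 CPM in winter and 68.3, 67.0 and 62.5 CPM in summer (log2 1.47, SE 0.21, adjusted p = 2.18e-05). The latter was at 476, 469 and 470 CPM in winter and 122, 134 and 136 CPM in summer, with winter libraries all at about the same level (log2 1.85, SE 0.26, adjusted p = 1.33e-05). A second locus listed under the dioxygenase, VIT_208s0105g00380, was lower in every winter library, at 73.5 ± 5.85 against 97.6 ± 13.1 CPM, but was not called (log2 -0.41, adjusted p = 0.351). A glucosyltransferase then adds the sugar that stabilises the pigment. The locus listed under it, VIT_216s0039g02230, was at 152, 152 and 159 CPM in winter and 41.3, 46.3 and 46.8 CPM in summer. Its 3.45-fold rise had the lowest p of all named list loci (log2 1.79, SE 0.17, adjusted p = 3.76e-08, and 2.05e-05 with the winter libraries summed).

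Glutathione S-transferases of this group carry anthocyanins towards the vacuole, and the listed locus VIT_204s0079g00690 showed the largest change of the late list. It was at 194, 189 and 196 CPM in winter and at 30.2, 46.4 and 54.7 CPM in summer, so the summer libraries varied more than the winter ones. The rise was 4.41-fold (log2 2.14, SE 0.35, adjusted p = 0.000105). All 3 vacuolar transporter loci rose. VIT_216s0050g00910 went from 54.4 ± 5.60 to 138 ± 2.20 CPM and VIT_216s0050g00930 from 53.7 ± 3.61 to 98.4 ± 5.62 CPM (adjusted p = 1.84e-05 and 0.00114). The transporter loci had 0 of 3 members with whole counts in at least 80% of libraries, so how their reads divide is uncertain. Together they were at 240 ± 7.18 CPM in winter and 110 ± 3.09 CPM in summer. The acyltransferase locus was not called by edgeR over all libraries and was at 1.49 ± 0.158 CPM in winter and 0.789 ± 0.212 CPM in summer. DESeq2 did not call it either, whereas the 6 libraries alone and limma on log2(FPKM + 1) called it higher.

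The MYBA transcription factors switch on the glucosyltransferase and other late genes in grape skin. Of 5 tested loci 4 rose and 0 fell, against 9.33% and 8.25% of all tested genes. The summed level was 301, 310 and 297 CPM in the winter libraries and 76.7, 92.4 and 92.6 CPM in the summer libraries. VIT_202s0033g00450 was at 163, 174 and 160 CPM in winter and 32.0, 36.9 and 33.6 CPM in summer (log2 2.27, SE 0.37, adjusted p = 0.000106). VIT_202s0033g00410 was at 54.7, 63.5 and 56.2 CPM in winter and 16, 21.3 and 21.2 CPM in summer (log2 1.58, SE 0.28, adjusted p = 0.000355). These 2 loci stayed called with the winter libraries summed. VIT_202s0033g00390 (29.8 ± 3.54 to 70.3 ± 5.28 CPM, adjusted p = 0.00375) and VIT_202s0033g00380 (3.76 ± 1.10 to 8.60 ± 1.00 CPM, adjusted p = 0.0124) did not, at 0.0773 and 0.13. VIT_202s0033g00380 also lost its call without winter replicate 1 (0.0514) or summer replicate 1 (0.0854). Whole counts in at least 80% of libraries were found in 1 of the 5 loci, so the division of reads among these neighbours is uncertain.

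The tannin and flavonol branches share precursors with anthocyanins. Of 6 tested loci of the tannin branch 2 rose and 0 fell, with a median log2 fold change of 0.24. Over all tested genes 9.33% rose and 8.25% fell. The anthocyanidin reductase locus VIT_200s0361g00040, whose enzyme makes epicatechin units of tannin, was at 17.4, 19.2 and 18.4 CPM in winter and 4.24, 5.02 and 5.71 CPM in summer (log2 1.88, SE 0.37, adjusted p = 0.000663). The leucoanthocyanidin reductase locus VIT_201s0011g02960, whose enzyme makes catechin, was at 13.8, 10.5 and 12.4 CPM in winter and 4.97, 4.50 and 5.33 CPM in summer (log2 1.30, SE 0.25, adjusted p = 0.000443). Both stayed called with the winter libraries summed, whereas 0 of the 3 tannin MYB loci were called by edgeR (0 at an unadjusted p below 0.05) or DESeq2, with 1 lower in the 6 libraries alone, at a sum of 67.5 ± 2.01 against 68.0 ± 2.90 CPM. On the flavonol and light list 1 of 7 loci rose, the flavonol synthase locus VIT_218s0001g03430, from 24.8 ± 2.62 to 42.2 ± 1.39 CPM (adjusted p = 0.00908, and 0.0559 without summer replicate 1). The 2 HY5-type loci, which relay light signals, summed to 16.1 ± 0.155 CPM in winter and 17.0 ± 0.815 CPM in summer and were not called by edgeR (1 higher and 1 lower at an unadjusted p below 0.05) or DESeq2. Over all flavonoid lists, 25 of 46 tested loci rose and 0 fell, against the same background shares of 9.33% and 8.25%.

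Stilbene synthases compete with chalcone synthase for the same precursors and make resveratrol. Of 38 tested loci 6 rose and 0 fell, and the calls were not stable: 20 were called by DESeq2, 0 with the winter libraries summed and 2 to 4 without any 1 library (2 without summer replicate 2 or 3). Over all tested genes 9.33% were called higher and 8.25% lower. The summed level of the 38 loci was 75.7, 72.8 and 69.2 CPM in winter and 15.2, 15.8 and 12.9 CPM in summer, with no overlap. These loci share reads, with whole counts in at least 80% of libraries in 2 of the 38. VIT_216s0100g00910 was the most abundant of the named loci at 8.61, 6.94 and 6.10 CPM in winter and 0.146, 0.738 and 0.601 CPM in summer (adjusted p = 0.00642, and 0.0527 with the winter libraries summed). VIT_210s0042g00920 and VIT_216s0100g00810 had 0 counts in each summer library, against 2.70 ± 0.579 and 1.54 ± 0.380 CPM in winter, or at least 12.2-fold and 6.96-fold higher with 3 counts per summer library in place of 0. Their adjusted p-values of 0.0185 and 0.0161 became 0.0506 to 0.0582 without any 1 of the summer libraries. VIT_201s0010g03930, a WRKY factor of the stilbene regulator list, went from 6.73 ± 1.17 to 13.4 ± 1.06 CPM (adjusted p = 0.0251), and was not called without winter replicate 1 or 3 or summer replicate 1 or 3 (0.0665 to 0.111).

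**Figure D3:**
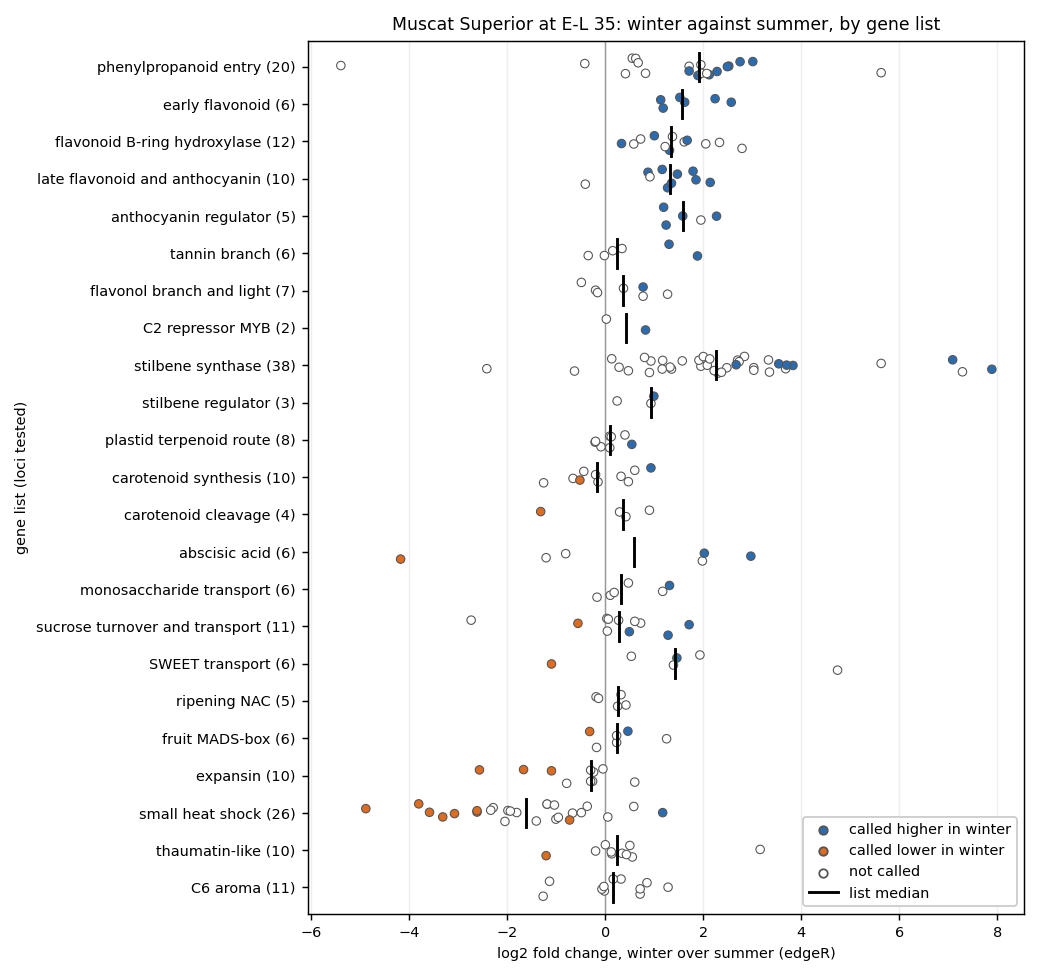
Log2 fold change of winter over summer (x axis) for every tested locus of the 23 lists (y axis, with the number tested). Filled points were called higher (blue) or lower (orange), open points were not called, and black bars are list medians, from 2.26 for stilbene synthases to -1.61 for small heat shock proteins.

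Expansins loosen cell walls and are tied to berry softening and growth. Of 10 tested loci 0 rose and 3 fell, the most abundant among them, against 9.33% and 8.25% of all tested genes. The summed level was 2110, 2080 and 2000 CPM in winter against 4490, 4360 and 3870 CPM in summer. VIT_213s0067g02930 was at 1380, 1340 and 1250 CPM in winter and 3070, 2910 and 2520 CPM in summer (log2 fold change -1.10, SE 0.27, adjusted p = 0.00527). VIT_217s0053g00990 was at 218, 223 and 222 CPM in winter and 756, 732 and 627 CPM in summer (log2 -1.67, SE 0.38, adjusted p = 0.00257). Whole counts in at least 80% of libraries were found in 7 of the 10 expansin loci. In VIT_217s0053g00990 they were found in 8.33% of libraries, so its share of reads is uncertain. VIT_206s0004g00070 was at 23.7, 19.9 and 20.7 CPM in winter and 147, 131 and 103 CPM in summer (log2 -2.57, SE 0.46, adjusted p = 0.000295). In each of the 3 loci all summer libraries were above all winter libraries, and leaving out any 1 library kept the calls. With the winter libraries summed 0 of the 3 were called, at adjusted p-values of 0.158, 0.129 and 0.0547.

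Small heat shock proteins are chaperones that cells make when proteins unfold, above all in heat. Of 26 tested loci on this list, which also held a heat shock factor, 1 rose and 8 fell, against 9.33% and 8.25% of all tested genes. In 21 every winter library was below every summer library (24.5% of all tested genes). The summed level was 277, 260 and 266 CPM in winter and 712, 626 and 453 CPM in summer, so the summer libraries were spread widely, with replicate 3 lowest. VIT_204s0008g01550 was at 2.15, 1.08 and 2.68 CPM in winter and 29.3, 26.6 and 15.3 CPM in summer (log2 -3.59, SE 0.85, adjusted p = 0.00383). VIT_213s0019g02840 was at 3.40, 2.16 and 1.57 CPM in winter and 15.2, 16.8 and 11.3 CPM in summer (log2 -2.62, SE 0.58, adjusted p = 0.00235). VIT_213s0019g02740 was at 0.918 ± 0.0945 CPM in winter and 9.24 ± 3.49 CPM in summer (adjusted p = 0.00276).

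The count for these chaperones varied with the libraries and the tool. DESeq2 called 13 lower, the 6 libraries alone 19, and leaving out 1 library 4 (without summer replicate 1) to 8. The count was 5 without winter replicate 3. With the winter libraries summed 1 was called, VIT_213s0019g02820, which was at 0.00, 0.00 and 0.462 CPM in winter and 7.39, 4.43 and 3.53 CPM in summer (adjusted p = 0.00114, and 0.0433 with the winter libraries summed). That call was not kept with near-identical libraries summed in every group (log2 -4.89). Whole counts in at least 80% of libraries were found in 5 of the 25 chaperone loci, so their reads are largely shared. The locus listed as heat shock factor A2, a transcription factor that activates such chaperones in Arabidopsis, went the other way, from 8.19, 6.42 and 7.06 CPM in summer to 15.6, 16.7 and 16.4 CPM in winter. Its adjusted p of 0.0438 (VIT_204s0008g01110) became 0.0814 to 0.136 without any 1 of the 6 libraries.

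Sugar loading starts at veraison. Vacuolar storage of hexose needs tonoplast monosaccharide transporters, and of the 6 tested monosaccharide transporters 1 rose. For this list and the next, the background is 9.33% of all tested genes higher and 8.25% lower. VIT_203s0038g03940, listed as a tonoplast transporter, was at 661, 703 and 673 CPM in winter and 257, 281 and 282 CPM in summer (log2 1.31, SE 0.29, adjusted p = 0.00254, and 0.0639 with the winter libraries summed). Of the 11 loci of sucrose turnover and transport 3 rose and 1 fell, and with the winter libraries summed, or without summer replicate 3, 0 rose. Invertases split sucrose into hexoses, and all 3 tested invertase loci were higher in every winter library (26.2% of all tested genes were), of which VIT_209s0002g02320 was not called (adjusted p = 0.215). VIT_216s0022g00670 was at 55.4, 54.1 and 54.1 CPM in winter and 21.0, 17.3 and 11.6 CPM in summer, and VIT_202s0154g00090 went from 50.1 ± 3.02 to 122 ± 5.58 CPM. Their adjusted p-values were 0.00918 and 0.0135, and became 0.0577 and 0.0557 without summer replicate 3. Of the sucrose-forming or sucrose-splitting synthases, VIT_211s0016g00470 was 1.40-fold higher (adjusted p = 0.0156) and VIT_218s0089g00410 1.48-fold lower (adjusted p = 0.022), and all 5 tested loci summed to 3260 ± 35.0 CPM in winter against 3210 ± 186 CPM in summer. VIT_211s0016g00470 lost its call without winter replicate 2 or summer replicate 3 (0.0551 and 0.0804), and VIT_218s0089g00410 without any of the winter libraries or summer replicate 3 (0.061 to 0.0786).

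SWEET proteins let sugars out of cells and into the apoplast. Of their 6 tested loci 2 changed, in opposite directions, where 17.6% of all tested genes were called. VIT_217s0000g00830 was at 182, 185 and 178 CPM in winter and 70.4, 66.2 and 61.6 CPM in summer (log2 1.46, SE 0.30, adjusted p = 0.00119). Its call was not kept with near-identical libraries summed in every group (log2 1.47). VIT_201s0146g00260 was at 621, 601 and 607 CPM in winter and 1190, 1310 and 1430 CPM in summer (log2 -1.10, SE 0.37, adjusted p = 0.0373). The libraries of the crops did not overlap in either, but the second call was lost without any 1 of the 6 libraries (0.0631 to 0.104). Per length VIT_201s0146g00260 had 334 ± 29.3 FPKM in summer, against 46 ± 3.29 FPKM for VIT_217s0000g00830, and 161 ± 3.11 against 131 ± 1.67 FPKM in winter.

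Abscisic acid is made by cleavage of epoxycarotenoids and broken down by hydroxylases. The 3 epoxycarotenoid dioxygenase loci were not called by edgeR (2 had an unadjusted p below 0.05), DESeq2 called 1 higher and 1 lower, and they summed to 86.6, 74.9 and 73.0 CPM in winter and 189, 172 and 118 CPM in summer. All 3 hydroxylase loci were called, 2 higher and 1 lower, where 17.6% of all tested genes were called. Without summer replicate 3 edgeR called 2 of all 6 loci lower. VIT_202s0087g00710 was at 8.27, 10.1 and 7.58 CPM in winter and 1.83, 2.29 and 2.25 CPM in summer (log2 2.02, SE 0.54, adjusted p = 0.00961, and 0.0916 with the winter libraries summed). VIT_218s0001g10500 was at 4.53, 3.69 and 3.05 CPM in winter and 0.512, 0.590 and 0.300 CPM in summer (log2 2.97, SE 0.73, adjusted p = 0.00543, and 0.066 with the winter libraries summed). VIT_203s0063g00380 was at 1.83, 1.48 and 0.826 CPM in summer and at or under 0.113 CPM, below the level of 3 counts, in each winter library (adjusted p = 0.00128). Its call was not kept with near-identical libraries summed in every group (log2 -4.21). The 3 hydroxylase loci together were at 12.5 ± 1.66 CPM in winter and 3.97 ± 0.519 CPM in summer.

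Carotenoids are the source of abscisic acid and of norisoprenoid aroma, and the plastid terpenoid route feeds both carotenoids and the monoterpenes of muscat aroma. Of 10 tested carotenoid synthesis loci 1 rose and 1 fell, and of 8 loci of the plastid route 1 rose, a share close to the background of 17.6% called. The latter was VIT_204s0008g04970, a deoxyxylulose phosphate synthase locus at the entry of the route, at 32.1, 30.2 and 32.1 CPM in winter and 21.2, 21.1 and 22.7 CPM in summer (adjusted p = 0.00295, and 0.0713 with the winter libraries summed). The carotenoid loci VIT_216s0050g01090 (8.52 ± 1.28 to 16.3 ± 2.23 CPM, adjusted p = 0.0477) and VIT_208s0032g00800 (53.7 ± 3.40 to 37.4 ± 1.01 CPM, adjusted p = 0.0371) were not called without any 1 of the libraries (0.0519 to 0.174 over both). VIT_202s0087g00930, listed under carotenoid cleavage dioxygenase 4, which degrades carotenoids, was at 46.1, 45.3 and 42.6 CPM in winter and 104, 118 and 113 CPM in summer. Its crops were far apart, but its adjusted p of 0.0238 became 0.059 to 0.0788 without any winter library or summer replicate 2 or 3.

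The remaining lists had at most a few called loci each. Over all tested genes 17.6% were called. Of 5 NAC loci, transcription factors tied to ripening, 0 were called, and the most abundant of the list by mean FPKM over both crops, VIT_219s0027g00230, was at 37.7, 38.8 and 41.9 CPM in winter and 42.6, 46.9 and 45.5 CPM in summer (adjusted p = 0.579). DESeq2 called 0 of the 5 as well, 0 had an unadjusted p below 0.05 in edgeR, and the 6 libraries fitted alone called 2 higher and 1 lower. Among 6 MADS-box loci, transcription factors of flower and fruit development, VIT_212s0142g00360 rose 1.37-fold (adjusted p = 0.00469, and 0.0982 with the winter libraries summed) and VIT_201s0010g03900 fell 1.24-fold (adjusted p = 0.0361, and 0.0735 to 0.101 without any 1 library). Of 10 thaumatin-like loci, abundant berry defence proteins, 0 rose by edgeR (1 by DESeq2, 1 by limma on log2(FPKM + 0.1) and 3 with the 6 libraries alone) and VIT_202s0025g04320 fell from 10.6 ± 1.22 to 4.56 ± 0.749 CPM (adjusted p = 0.0109, and 0.057 without winter replicate 3). The sum of the thaumatin-like loci was higher in every winter library than in every summer library, at 17600 ± 169 against 13700 ± 1160 CPM. On the list of C6 aroma (the lipoxygenase route to leaf aldehydes) 0 of 11 loci were called by DESeq2 or by edgeR over all libraries (2 had an unadjusted p below 0.05), while the 6 libraries fitted alone called 1 higher and 2 lower, and the hydroperoxide lyase locus VIT_212s0059g01060 was at 743, 758 and 711 CPM in winter and 792, 799 and 664 CPM in summer, with overlap. Of 2 loci of C2 repressor MYBs, which damp the flavonoid route, VIT_201s0011g04760 went from 23.7 ± 2.04 to 42.0 ± 2.52 CPM (adjusted p = 0.0214) and lost its call without winter replicate 1 or 3 or summer replicate 1 or 3 (0.0517 to 0.0799).

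**Figure D4:**
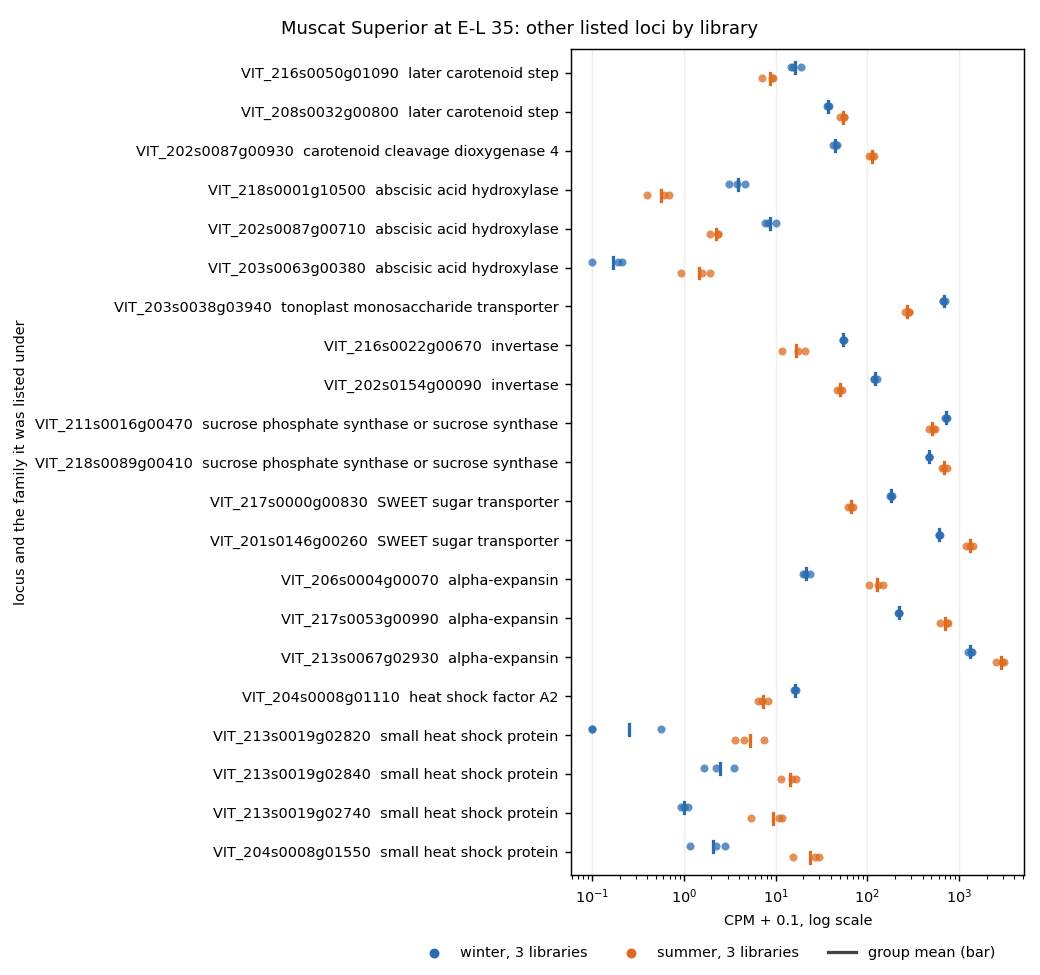
CPM plus 0.1 on a log axis (x) of the named carotenoid, abscisic acid, sugar, expansin and heat shock loci (y, with the family each was listed under) in the 3 winter (blue) and 3 summer (orange) libraries, with vertical bars at group means. The 3 expansin loci are 2.14-fold to 5.92-fold lower in winter, and the 4 small heat shock protein loci lie lower in every winter library than in every summer library.

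The same crop contrast was read in Victoria at E-L 35 and in Muscat Superior at E-L 36, neither of which shares a library with the comparison here. More genes were called there, 42.1% and 42.6% of those tested. Of the 1842 genes higher in winter here, 53.6% were also called higher in Victoria and 6.79% lower, against 21.8% and 20.3% of all tested genes. At E-L 36, 47.4% were called higher and 8.69% lower, against 21.0% and 21.6%. Of the 1628 genes lower here, 48.3% were lower in Victoria and 47.6% lower at E-L 36. The winter effect was called the same way in all 3 comparisons for 534 of the higher genes (29.0%) and 405 of the lower genes (24.9%), and 360 and 318 (19.5% of each) were called in neither of the others. The matching shares over all tested genes were not computed for these counts, so they give no measure of sharing or of specificity beyond the background. The ripening step from E-L 35 to E-L 36 in summer Victoria, which called 43.0% of tested genes (21.3% higher, 21.6% lower), called 36.6% of the genes higher here higher and 15.5% lower, and 34.3% of the genes lower here lower and 17.3% higher. The difference itself was tested: the winter effect differed from that in Victoria in 3566 genes (18.1% of those tested: 8.51% higher and 9.56% lower here) and from that at E-L 36 in 4439 (22.5%: 10.6% higher and 11.9% lower at E-L 36). With the winter libraries summed these counts were 1423 and 2451.

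The winter effect differed from Victoria's in 573 of the 1842 genes higher here and 432 of the 1628 lower ones. Over all tested genes it differed in 18.1%. Genes picked for a call in 1 of the 2 contrasts are more likely to differ, so these counts are no independent evidence. Of the 6 tested early flavonoid loci 0 had a larger and 2 a smaller winter effect than in Victoria. Of the 10 tested late loci 2 had a larger and 0 a smaller one. Over all tested genes the difference was called higher here in 8.51% and lower in 9.56%. The chalcone synthase locus VIT_214s0068g00920 rose more in Victoria (log2 4.79, against 2.24 here; difference adjusted p = 0.000503), as did MYBA loci VIT_202s0033g00450 (6.58 against 2.27, adjusted p = 2.72e-05) and VIT_202s0033g00390 (5.24 against 1.24, adjusted p = 1.78e-06). The glucosyltransferase locus VIT_216s0039g02230 and the glutathione S-transferase locus VIT_204s0079g00690 had log2 fold changes of -0.09 (SE 0.18) and -0.83 (SE 0.83) in Victoria, where neither was called, against 1.79 and 2.14 here (difference adjusted p = 8.23e-06 and 0.0161). The 3-prime hydroxylase locus VIT_217s0000g07200 was at -0.24 in Victoria against 1.00 here (adjusted p = 0.00192). In 1 expansin locus the directions were opposed: VIT_217s0053g00990 rose in winter Victoria (log2 2.37, adjusted p = 2.25e-05) and fell here (-1.67), a difference of -4.04 (adjusted p = 1.42e-05). Counts of VIT_217s0000g07200 and VIT_217s0053g00990 were whole in 2.78% and 8.33% of libraries, so how their reads divide is uncertain.

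At E-L 36, 24 of the 46 flavonoid loci were called higher in winter and 3 lower, against 21.0% and 21.6% of all tested genes, with 6 of 6 early loci and 4 of 5 MYBA loci among the higher ones. The glutathione S-transferase locus VIT_204s0079g00690 was not called there (log2 0.77, adjusted p = 0.0664; difference from 2.14 here, adjusted p = 0.0392). The glucosyltransferase locus VIT_216s0039g02230 rose less there (log2 0.45 against 1.79, difference adjusted p = 0.000138). The tannin loci VIT_201s0011g02960 (-0.51 against 1.30, difference adjusted p = 0.000441) and VIT_200s0361g00040 (-0.20 against 1.88, adjusted p = 0.00801) were not called at E-L 36. The abscisic acid hydroxylase locus VIT_203s0063g00380, near 0 in winter here, was higher in winter at E-L 36 (log2 4.06, adjusted p = 0.000588; difference adjusted p = 2.63e-05). Of the small heat shock list 10 of 26 loci were called lower at E-L 36 and 15 in Victoria, against 21.6% and 20.3% of all tested genes. Neither difference was called for VIT_204s0008g01550 or VIT_213s0019g02840.

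**Figure D5:**
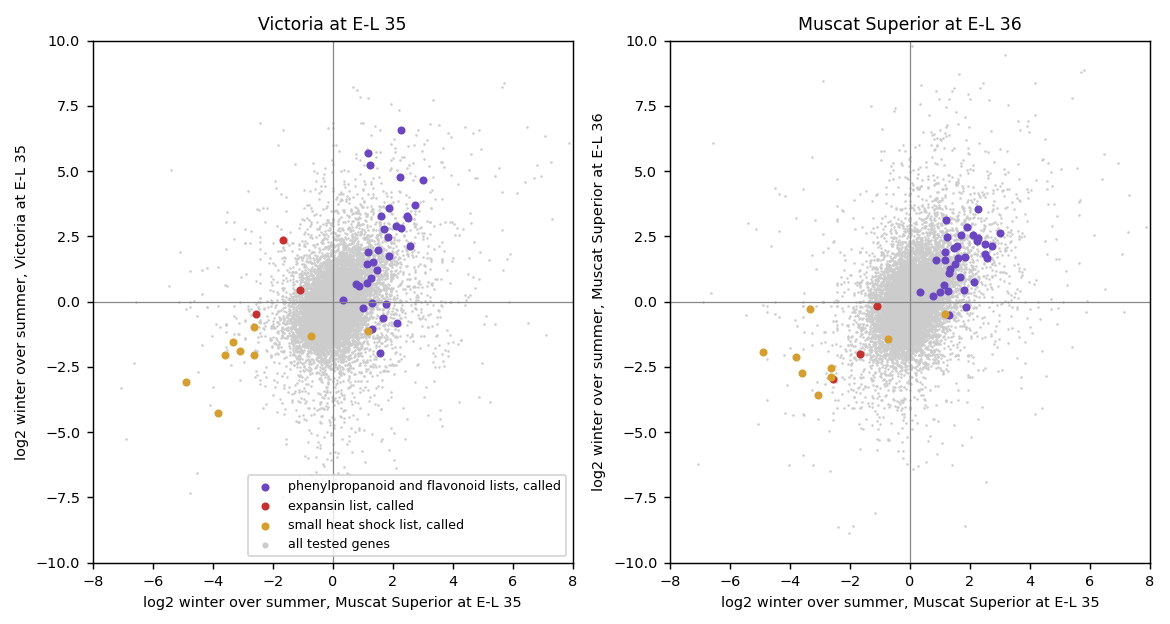
Log2 fold change of winter over summer in Muscat Superior at E-L 35 (x axis) against that in Victoria at E-L 35 (left) and in Muscat Superior at E-L 36 (right), for all tested genes (grey) and for the called loci of the phenylpropanoid and flavonoid (purple), expansin (red) and small heat shock (yellow) lists. The axes leave out 1 gene on the left and 4 on the right. Some purple points to the right of 0 lie below 0 in Victoria, among them VIT_204s0079g00690 at -0.83 (SE 0.83, not called there).

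Genes were called more often at higher abundance, from 8.31% of genes in quartile 1 of mean CPM to 27.8% in quartile 4, in which 16.4% were lower and 11.4% higher in winter. By transcript length the shares were 15.8% to 19.1% over the quartiles. Runs of at least 3 tested neighbours in identifier order that were all called the same way numbered 38 for higher and 23 for lower genes. The longest held 6 genes lower in winter, on chromosome 8 as numbered in the identifiers, with a median log2 fold change of -1.78. Whole counts in at least 80% of libraries were found in 16.7% of them, so their reads are largely shared. The other run of at least 5 genes was lower too, on chromosome 16 with a median of -0.79.

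Outside the lists, where no name or role is at hand, the largest changes among called genes with a mean of at least 10 CPM in either crop were these. VIT_202s0154g00300 was at 14.2, 12.1 and 16.4 CPM in winter and 0.219, 0.148 and 0.0751 CPM in summer (adjusted p = 0.000484). VIT_219s0085g00740 was at 28.0, 33.2 and 28.7 CPM in winter and 1.17, 0.590 and 0.300 CPM in summer (log2 5.42, SE 0.64, adjusted p = 1.48e-06). Both rose in winter in Victoria and at E-L 36 too, by 6.71 and 5.64 for the former and 4.82 and 7.81 for the latter on the log2 scale. Of the genes lower in winter, VIT_216s0039g00820 was at 0.227, 0.180 and 0.00 CPM in winter and 20.8, 21.4 and 15.1 CPM in summer (adjusted p = 3.99e-07). The same limit holds for this locus, with whole counts in 33.3% of libraries. VIT_202s0025g00430 was at 1.36, 0.541 and 1.02 CPM in winter and 42.2, 27.2 and 16.1 CPM in summer, with a wide summer spread (log2 -4.89, SE 1.01, adjusted p = 0.00125, and 0.0852 with the winter libraries summed). This locus was not called in Victoria or at E-L 36, and its winter effect differed from both (adjusted p = 0.0328 and 0.0119). Only 5 genes had at least 10 counts in each winter library and 0 in each summer library, and 2 had the reverse.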

How the data were processed

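Per the file headers, the deposited tables give for each library and gene an expected count (an estimated read number, with fractions where reads are shared), an FPKM value and a transcript length in bases. Bowtie is named in the submitters' processing notes, and DESeq2, for the authors' own comparison, in the series design. A gene missing from a table was set to 0. For genome build, annotation and counter: not given in the sources used here. Expected counts were rounded, filtered (filterByExpr), scaled (TMM) and fitted in edgeR 4.0.16 (R 4.3.3) as a means model of 12 groups over 36 libraries, with 24 residual degrees of freedom and the robust quasi-likelihood F test. Genes were called at a Benjamini-Hochberg adjusted p below 0.05. SE is the log2 fold change over the square root of F.

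The lists held 263 recalled identifiers, with a 2 inserted before the chromosome number as an assumption, of which 252 were in the files. The supplied gene table matched 0 identifiers. Members and lists were chosen with earlier results of these data known. Up to 4 called loci per list and direction with the lowest p were named (6 in the phenylpropanoid and flavonoid lists), the most abundant locus where a list had no call, and 2 per direction outside the lists. Alternatives were DESeq2 1.42.0, no filter, the 6 libraries alone, limma 3.58.1 on the deposited FPKM as log2(FPKM + 1) and log2(FPKM + 0.1), a replicate block, summed libraries and each library left out. Floors of 3 counts cover counting error only.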

Additional observations from a re-analysis of the deposited data

Results flagged for a closer look

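Over all tested genes, the winter effect at E-L 35 in Muscat Superior differed from that in Victoria at the same stage in 18.1%. It differed from that at E-L 36 in 22.5%. Of the 66 named loci, most of them chosen for a low p in this contrast, it differed in 22 and 14, the latter near the background share. Each was a test of the difference (edgeR, adjusted p below 0.05). With the winter libraries of Muscat Superior at E-L 35 summed, 12 and 6 of these differences were still called, and leaving out 1 library kept 17 to 20 and 8 to 10. Differences are on the log2 scale, and explanations were not tested.

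Against Victoria, the winter effect was smaller (Muscat Superior minus Victoria) by -2.55 in the chalcone synthase locus VIT_214s0068g00920, -0.73 in the flavanone 3-hydroxylase locus VIT_218s0001g14310, and -4.30, -4.00 and -4.50 in the MYBA loci VIT_202s0033g00450, VIT_202s0033g00390 and VIT_202s0033g00380. It was larger by 1.24 in the 3-prime hydroxylase locus VIT_217s0000g07200, 1.87 in the glucosyltransferase locus VIT_216s0039g02230, 2.97 in the glutathione S-transferase locus VIT_204s0079g00690 and 1.35 in the leucoanthocyanidin reductase locus VIT_201s0011g02960.

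Expansin loci differed from Victoria by -2.08 (VIT_206s0004g00070), -4.04 (VIT_217s0053g00990) and -1.53 (VIT_213s0067g02930). SWEET loci differed by 1.41 (VIT_217s0000g00830) and 1.54 (VIT_201s0146g00260), and the heat shock factor locus VIT_204s0008g01110 by 2.28. The carotenoid loci VIT_216s0050g01090 and VIT_202s0087g00930 differed by 1.89 and -2.46, and the abscisic acid hydroxylase locus VIT_203s0063g00380 by -3.97. The MADS-box locus VIT_201s0010g03900 differed by -0.79, the hydroperoxide lyase locus VIT_212s0059g01060 by -1.08, and VIT_216s0039g00820 and VIT_202s0025g00430, outside the lists, by -3.75 and -4.59.

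From E-L 35 to E-L 36 the winter effect in Muscat Superior became smaller (E-L 36 minus E-L 35) by -1.34 in VIT_216s0039g02230, -1.37 in VIT_204s0079g00690, -1.81 in VIT_201s0011g02960, -2.07 in VIT_200s0361g00040, -3.49 in the abscisic acid hydroxylase locus VIT_218s0001g10500 and -1.66 in VIT_204s0008g01110. It became larger or less negative by 0.74 in VIT_216s0050g00930, 1.25 in VIT_202s0033g00390, 1.92 in VIT_202s0033g00380, 8.24 in VIT_203s0063g00380, 1.95 in the NAC locus VIT_219s0027g00230, 0.42 in VIT_201s0010g03900, 3.03 in the small heat shock locus VIT_213s0019g02740 and 4.76 in VIT_202s0025g00430. The value of VIT_203s0063g00380 rests on 2 winter counts at E-L 35.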

How the results depend on the processing

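The 3470 calls (1842 higher, 1628 lower) were 7939 (4128, 3811) with the 6 libraries alone, 789 (516, 273) with the winter libraries summed, 527 (352, 175) with near-identical libraries summed in every group, and 2313 to 2378 (1206 to 1298, 1043 to 1153) without 1 library. Higher genes made up 53.1% of the calls, 63.0% and 63.5% with log2(FPKM + 1) and log2(FPKM + 0.1), and 65.4% and 66.8% in the summed fits. The 3566 differences from Victoria and 4439 from E-L 36 became 1423 and 2451 with the winter libraries summed and 937 and 1512 with all near-identical ones summed. In the 6-library fit 13 phenylpropanoid loci were higher and 5 expansin and 19 small heat shock loci lower, and DESeq2 called 13 of the last list lower. The counts in the 2 summed fits were 3 and 3 for phenylpropanoid entry, 6 and 5 for late flavonoid, 2 and 2 for the MYBA list, 0 and 0 for expansins and 1 and 0 for small heat shock loci. Without 1 library they were 5 to 7 for phenylpropanoid entry and 4 to 8 for small heat shock loci. VIT_212s0059g01060 (log2 -0.03, not called) reversed to 0.03 with each pseudocount and ran from -0.11 to 0.02 without 1 library (0.01 without summer replicate 1, 0.02 without summer replicate 2). Of 60 called named loci 23 and 18 were called in the summed fits. Replicate numbers did not pair the libraries (deviations correlated by 0.008, 0.006 and 0.003), and the replicate block called 3400 genes. Why the counts moved was not tested, but the summed fits hold fewer samples. Genes near 0.219 to 0.340 CPM rest on about 3 counts.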
